A study of Homo sapiens with 9 samples.

Results

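Myocilin and its relatives were followed in MG-63 cells on 3 implant surfaces. The 7 family genes were taken by gene name from a table of 36385 genes, and all 7 had a row: MYOC, OLFM1, OLFM2, OLFML1, OLFML2A, OLFML2B and OLFML3. MYOC and OLFM2 were chosen by their measured fold change, being among the largest falls on the HA coating against bare alloy. Their values are therefore given as a description with no test, in every comparison, since all 3 comparisons share libraries with that choice. The other 5 were taken by family name and are tested. The question was whether the family shares the low level of MYOC and OLFM2 on the coated surfaces.

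The olfactomedin domain is a propeller-shaped protein module found in secreted glycoproteins and a few membrane proteins, where it binds partners outside the cell. Myocilin carries it behind a coiled coil and is best known from the trabecular meshwork of the eye, where glucocorticoids raise its transcript and where mutations that misfold the domain cause glaucoma. In mouse marrow-derived cells myocilin has been reported to promote osteogenic differentiation. The noelins OLFM1 and OLFM2 are secreted in the nervous system, OLFML2A and OLFML2B (photomedins) bind sulphated sugar chains in studies of the mouse proteins, and OLFML3 is a secreted matrix protein whose frog relative regulates the BMP antagonist chordin.

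MG-63 is a human osteosarcoma cell line used as a model of osteoblasts. Cells grew for 7 days on boronized Ti6Al4V with HA (HA coating), on Ti6Al4V with TiB2 (TiB2 surface) or on bare Ti6Al4V, a titanium alloy for implants (bare alloy), with 3 RNA-seq libraries per surface. The osteogenic medium was the same for all groups and held ascorbic acid (50 µg/mL), beta-glycerophosphate (10 mM) and the synthetic glucocorticoid dexamethasone (100 nM). The labels mark the TiB2 libraries as not part of the final analysis, give every library the same batch, and are silent on whether separate cultures were used for the libraries of a surface. The p-values then measure only how these libraries vary, and that variation may be technical.

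Libraries held 60528871 to 72542556 counts on the HA coating, 62951461 to 63413815 on TiB2 and 58464306 to 63122541 on bare alloy. Ribosomal DNA rows took 0.0832% to 0.197% of counts on the HA coating, 0.138% to 0.155% on TiB2, and 6.48%, 1.07% and 0.617% in bare alloy replicates 1, 2 and 3. The labelled cell type was checked with markers: 9 mesenchymal genes summed to 6362 to 10582 CPM on the HA coating, 9802 to 10266 CPM on TiB2 and 18560 to 20238 CPM on bare alloy (CPM, counts adjusted for library size with TMM factors). In this list ALPL, the bone alkaline phosphatase, went the other way. It was 6.38-fold higher on the HA coating and 7.51-fold higher on TiB2 (edgeR adjusted p = 0.00353 and 8.45e-05). LUM and RUNX2 passed as higher on TiB2, with the RUNX2 call lost in 5 of 6 fits that left out a library. LUM averaged 91.9 CPM on the HA coating, 82.7 CPM on TiB2 and 47.1 CPM on bare alloy. On the HA coating LUM was 1.94-fold higher and did not pass (edgeR adjusted p = 0.0514). Although the label calls the cells epithelial-like, 4 epithelial genes summed to 7.39 to 9.80 CPM, 8.98 to 10.4 CPM and 10.4 to 12.5 CPM on the 3 surfaces in the same order. Endothelial genes (4) summed to 12.6 to 14.3 CPM on the HA coating, 11.2 to 11.8 CPM on TiB2 and 28.9 to 37.9 CPM on bare alloy. Of these only CDH5 passed against bare alloy, lower on both coated surfaces, and no marker was at 0 throughout a surface. PECAM1 averaged 9.11 CPM on the HA coating, 6.29 CPM on TiB2 and 6.46 CPM on bare alloy. TEK averaged 2.03 CPM, 1.85 CPM and 2.84 CPM in that order, and VWF had at most 24 counts in any library. T cell genes (9) summed to 3.21 to 5.79 CPM, 10.1 to 11.2 CPM and 1.71 to 7.76 CPM in that order, with CD3D, CD3E, CD3G, CD2 and LCK at 0 counts in all HA libraries. TRAC was at 0 counts in all TiB2 libraries, and CD2 and TRAC in all bare alloy libraries, while TRAC had up to 12 counts on the HA coating. On bare alloy CD3D, CD3E, CD3G and LCK ranged from 0 to 108, 103, 39 and 118 counts. IL7R, of the same list, averaged 4.22 ± 1.54 CPM on the HA coating, 3.13 ± 0.205 CPM on TiB2 and 1.41 ± 0.238 CPM on bare alloy and was higher on both coated surfaces (edgeR adjusted p = 0.0201 and 0.00441). The part of these differences in the results below was not tested, and in bulk RNA fewer cells of a type and less RNA per cell cannot be told apart.

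MYOC, OLFM2, OLFML2B and OLFML3 were all low on the HA coating, while OLFM1 was not. MYOC averaged 3.46 ± 0.429 CPM on the HA coating and 89.8 ± 8.21 CPM on bare alloy (SD, n = 3 each), 26.1-fold lower, and OLFM2 was 16.1-fold lower. Of the 5 genes taken by name, OLFML2B fell 8.78-fold and OLFML3 fell 3.49-fold (edgeR adjusted p below the threshold of 0.05), and none rose. OLFM1, the family gene with the highest level on the coated surfaces, averaged 82.4 ± 17.9 CPM on the HA coating and 83.4 ± 3.85 CPM on bare alloy.

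MYOC (ENSG00000034971) lies on chromosome 1, from 171635417 to 171652688 on the minus strand of GRCh38, as do all coordinates of the deposited table. Its level was 3.00, 3.85 and 3.54 CPM in the HA libraries, against 98.7, 88.0 and 82.6 CPM in the bare alloy libraries. Every HA library was far below every bare alloy library, and the spread within either surface was small beside the gap. For 17.4% of all genes tested every HA library lay below every bare alloy library. Behind these levels stood 188 to 247 counts per HA library and 5018 to 5622 counts per bare alloy library. The log2 fold change was -4.70 ± 0.19 (SE), which placed MYOC 37 from the lowest among 20117 genes tested. The gene overlaps MYOCOS on the opposite strand, which had 4 counts in bare alloy replicate 1 and 0 in every other library, so few counts were assigned to the antisense gene. The use of strand in counting is not known, so the origin of reads in the overlap is uncertain.

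OLFM2 (ENSG00000105088, chromosome 19, 9853718 to 9936515, minus strand) encodes noelin-2, which has also been linked to smooth muscle differentiation in human cells. It measured 2.52, 1.48 and 2.00 CPM in the HA libraries, against 35.8, 28.6 and 31.9 CPM in the bare alloy libraries. All HA libraries lay below all bare alloy libraries, as for 17.4% of all genes tested, and the log2 fold change of -4.01 ± 0.25 ranked 53 from the lowest.

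OLFML2B (ENSG00000162745, chromosome 1, 161983192 to 162023869, minus strand) encodes photomedin-2. It measured 3.33, 1.84 and 1.66 CPM in the HA libraries, against 21.5, 20.0 and 18.4 CPM in the bare alloy libraries. All HA libraries lay below all bare alloy libraries, as for 17.4% of all genes tested, with HA replicate 1 the highest of its surface. The fall was -3.13 ± 0.30 on the log2 scale (95% interval -3.80 to -2.47; edgeR adjusted p = 7.79e-04).

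OLFML3 (ENSG00000116774, chromosome 1, 113979441 to 114035572, plus strand) measured 1.40, 1.26 and 1.23 CPM in the HA libraries, against 4.24, 4.94 and 4.33 CPM in the bare alloy libraries. The HA libraries were again all below, as for 17.4% of all genes tested. The log2 fold change was -1.80 ± 0.23 (95% interval -2.33 to -1.27; edgeR adjusted p = 0.00308). Against bare alloy replicate 1 alone it was -1.69, close to the full value, and did not pass (adjusted p = 0.140, from edgeR), in a fit with 1 library in that arm, assumed to vary like the HA libraries. Without that library it passed (-1.84; edgeR adjusted p = 0.0143).

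These 2 falls stood among 5 tested genes, where 4.88% of all genes tested fell and 9.89% changed in either direction. The median log2 fold change of the 5 genes was -0.76, against 0.02 over all genes. OLFML2A (ENSG00000185585, chromosome 9, 124777133 to 124814882, plus strand), which encodes photomedin-1, measured 27.3, 16.1 and 11.1 CPM in the HA libraries, against 35.7, 28.3 and 28.2 CPM in the bare alloy libraries. Its HA libraries were all lower but widely spread, as were those of 17.4% of all genes tested, and the difference of -0.76 ± 0.31 did not pass the test (95% interval -1.45 to -0.07; edgeR adjusted p = 0.15). Without HA replicate 1 it was -1.17 with edgeR adjusted p = 0.0124.

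OLFM1 (ENSG00000130558, chromosome 9, 135075422 to 135121179, plus strand) encodes noelin-1, a secreted partner of glutamate receptors and of the Nogo receptor in neurons. It measured 93.3, 61.8 and 92.2 CPM in the HA libraries, against 86.0, 79.0 and 85.3 CPM in the bare alloy libraries. The surfaces overlapped, and the 95% interval of the difference, -0.45 to 0.40 around -0.03 on the log2 scale, leaves room for a change of about that size either way (edgeR adjusted p = 0.946). OLFML1 (ENSG00000183801, chromosome 11, 7485388 to 7510349, plus strand) was close to the limit of detection, with 8, 12 and 9 counts in the HA libraries, 7, 0 and 0 counts in the TiB2 libraries and 0, 12 and 20 counts in the bare alloy libraries. With 0 counted, a level of up to 3 counts cannot be told from absence, which is 0.0414 to 0.0513 CPM. No difference was detectable at this depth (HA coating against bare alloy -0.21 ± 1.08, edgeR adjusted p = 0.924), and OLFML1 also overlaps SYT9-AS1 on the opposite strand, which had 25 to 225 counts per library.

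**Figure D1:**
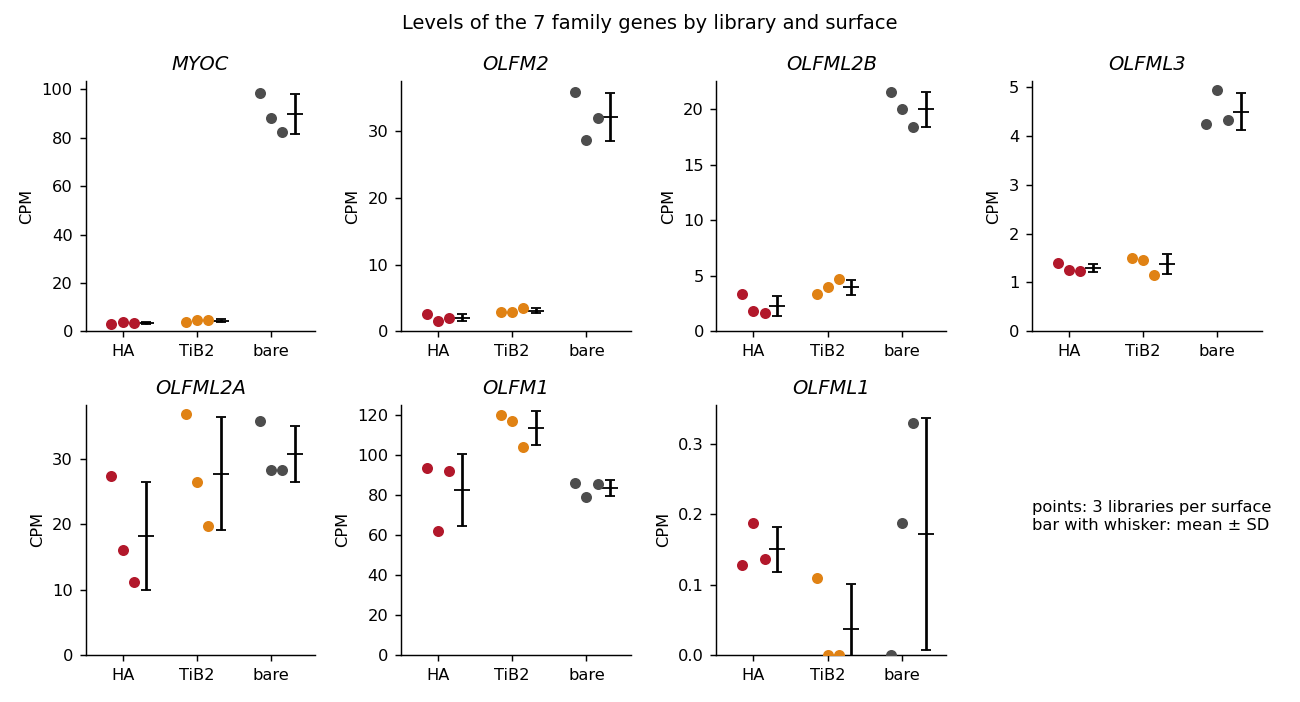
Level of each family gene in every library (CPM after TMM scaling, y axis, a separate linear scale per gene) on the HA coating, TiB2 and bare alloy (x axis), with points for libraries and bars for mean ± SD (n = 3). MYOC, OLFM2, OLFML2B and OLFML3 are low on both coated surfaces, with MYOC at 3.46 CPM on HA and 4.28 CPM on TiB2 against 89.8 CPM on bare alloy, while OLFM1 overlaps bare alloy on the HA coating and lies above it on TiB2.

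Promoters of the family genes that moved together are shown beside that of OLFM1, which did not fall. RefSeq (GRCh38.p14) held windows for 5 of the 7 genes (OLFM1, OLFM2, OLFML2A, OLFML2B and OLFML3). The 250 bases before the first listed start are given on the strand of the gene, at chr19:9936516-9936765 (minus) for OLFM2, chr1:162023870-162024119 (minus) for OLFML2B, chr1:113979224-113979473 (plus) for OLFML3 and chr9:135075255-135075504 (plus) for OLFM1. Capitals mark matches, on either strand, to the GC box GGGCGG or the TEAD motif GGAATG.
OLFM2: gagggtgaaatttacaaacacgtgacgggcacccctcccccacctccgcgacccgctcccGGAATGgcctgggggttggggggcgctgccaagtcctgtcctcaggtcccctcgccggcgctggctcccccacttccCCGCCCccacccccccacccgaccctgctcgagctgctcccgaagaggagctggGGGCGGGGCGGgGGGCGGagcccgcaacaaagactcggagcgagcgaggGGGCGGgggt
OLFML2B: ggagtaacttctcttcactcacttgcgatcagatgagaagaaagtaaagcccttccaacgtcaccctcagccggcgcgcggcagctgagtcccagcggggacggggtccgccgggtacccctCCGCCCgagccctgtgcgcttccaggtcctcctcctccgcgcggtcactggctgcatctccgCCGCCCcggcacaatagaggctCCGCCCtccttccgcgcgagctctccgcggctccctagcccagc
OLFML3: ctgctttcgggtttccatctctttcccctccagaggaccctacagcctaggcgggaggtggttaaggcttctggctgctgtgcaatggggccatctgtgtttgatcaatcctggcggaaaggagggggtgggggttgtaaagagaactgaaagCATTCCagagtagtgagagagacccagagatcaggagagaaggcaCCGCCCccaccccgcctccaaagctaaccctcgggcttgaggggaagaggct
OLFM1: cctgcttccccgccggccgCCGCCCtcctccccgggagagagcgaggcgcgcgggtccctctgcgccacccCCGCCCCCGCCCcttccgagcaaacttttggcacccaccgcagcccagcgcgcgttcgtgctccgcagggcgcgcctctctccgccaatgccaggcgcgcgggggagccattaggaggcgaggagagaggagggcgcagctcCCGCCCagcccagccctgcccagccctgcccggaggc
The GC box, which can overlap itself or another copy, matched 5 times in the OLFM2 window, 3 times in OLFML2B, 1 time in OLFML3 and 4 times in OLFM1, and 42.6% of 35116 promoter windows of the same length hold it. The TEAD motif matched 1 time each in OLFM2 and OLFML3 and 0 times in OLFML2B and OLFM1, and 11.9% of windows hold it. The TATA box TATAAA (10.7% of windows), the AP-1 motif TGANTCA (6.6%) and the glucocorticoid half-site AGAACA (12.4%), also searched on both strands, matched 0 times in these 4 windows. In these first windows no motif searched was in all 3 low genes and absent from OLFM1. Windows at later starts were searched too, 2 each for OLFM1 and OLFM2 and 1 for OLFML2A. At those of OLFM2 the TATA box, the TEAD motif and the glucocorticoid half-site matched 1 time each, and at those of OLFM1 all 3 matched 0 times. OLFML2A, which passed on neither coated surface, had 1 match each to the TEAD motif and the glucocorticoid half-site at its later start. Its first window held 6 matches to the GC box and 0 to the other motifs.

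The same 4 genes were low on TiB2, the boride surface without HA, and OLFM1 rose there. This comparison uses the same bare alloy libraries as the one above, so their values stand side by side and are not independent. MYOC measured 3.61, 4.65 and 4.58 CPM in the TiB2 libraries, 21.0-fold below the bare alloy mean, at -4.39 ± 0.13 on the log2 scale. OLFM2 measured 2.86, 2.83 and 3.49 CPM on TiB2, 10.5-fold lower (-3.39 ± 0.14).

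OLFML2B measured 3.31, 3.94 and 4.67 CPM on TiB2 and fell 5.02-fold against bare alloy (-2.33 ± 0.15; edgeR adjusted p = 1.28e-05). OLFML3 measured 1.51, 1.47 and 1.15 CPM and fell 3.27-fold (-1.71 ± 0.20; edgeR adjusted p = 3.32e-04). For these 4 low genes every TiB2 library lay below every bare alloy library, as for 21.2% of all genes tested. OLFM1 measured 120, 117 and 104 CPM on TiB2, above all bare alloy libraries, as for 20.9% of all genes tested, and rose 1.36-fold (0.44 ± 0.08; 95% interval 0.27 to 0.61; edgeR adjusted p = 0.00269). The OLFM1 call was lost, with adjusted p = 0.121, when all 9 libraries shared an estimate of spread. OLFML2A, at 36.9, 26.5 and 19.7 CPM, overlapped bare alloy (-0.15 ± 0.20; edgeR adjusted p = 0.642), and OLFML1 did not pass the filter on low counts.

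Of the 4 genes taken by name that could be fitted, 1 rose and 2 fell, where 12.9% of all genes tested rose and 12.2% fell (25.1% in all). Their median log2 fold change was -0.93, against 0.00 over all genes. Without bare alloy replicate 1 the 3 calls held, with OLFML2B at -2.27, OLFML3 at -1.76 and OLFM1 at 0.46.

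Between the coated surfaces no family gene tested passed. MYOC lay at -0.32 ± 0.23 on the HA coating against TiB2, and its libraries overlapped. OLFM2 lay at -0.62 ± 0.28, with every HA library below every TiB2 library, as for 9.51% of all genes tested. The 4 tested were OLFM1, OLFML2A, OLFML2B and OLFML3, and 0.632% of all genes tested passed, 0.453% lower and 0.179% higher. At an unadjusted p under 0.05 there were 2, OLFML2B and OLFM1, and DESeq2 and limma also called 0 after adjustment.

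OLFML2B was lower on the HA coating by -0.81 ± 0.32 (95% interval -1.53 to -0.10; edgeR adjusted p = 0.381), with HA replicate 1 level with TiB2 replicate 1. Without HA replicate 1 it was -1.20 with edgeR adjusted p = 0.0480. OLFM1 was lower by -0.47 ± 0.19 (95% interval -0.91 to -0.04; edgeR adjusted p = 0.387), with no overlap between surfaces, as for 9.51% of all genes tested. OLFML2A differed by -0.61 ± 0.33 (95% interval -1.35 to 0.13) and OLFML3 by -0.10 ± 0.30 (95% interval -0.76 to 0.57).

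**Figure D2:**
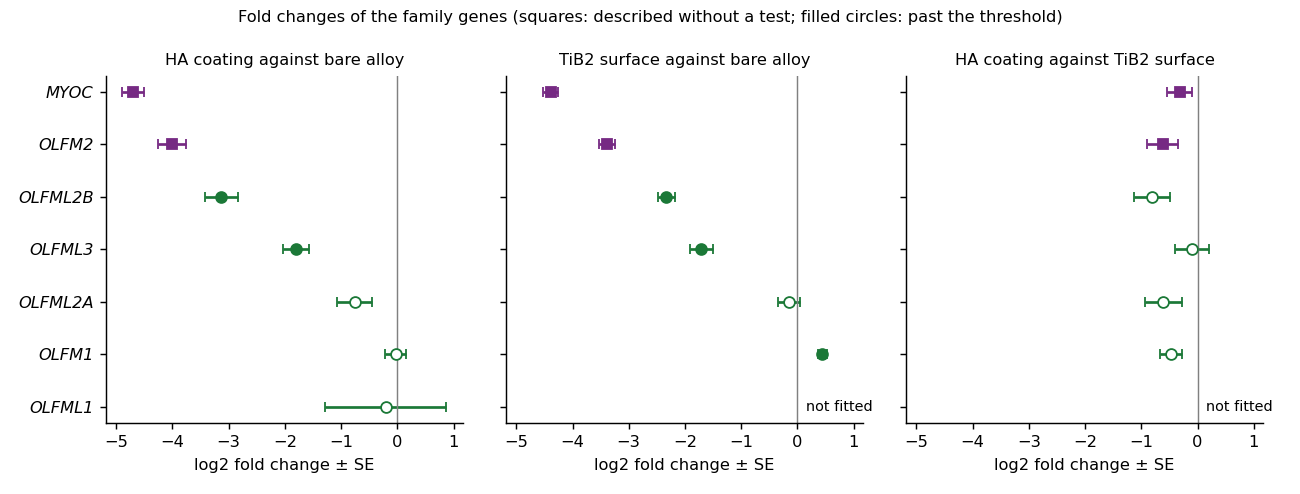
Log2 fold change ± SE of each family gene (x axis; rows are genes) in the 3 comparisons, from edgeR on 3 libraries per surface. Squares are MYOC and OLFM2, described without a test, and filled circles passed the threshold. Against bare alloy the genes run from -4.70 (MYOC) to values around 0 on the HA coating, and OLFM1 lies at 0.44 on TiB2, while between coated surfaces no value is below -0.81.

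Levels of different genes were compared in deposited FPKM, which takes length into account. On bare alloy MYOC was the family gene with the highest level in every library, averaging 39.9 FPKM, followed by OLFM1 at 12.8 FPKM and OLFM2 at 12.2 FPKM, which exchanged places in replicate 1. OLFML2B (5.44 FPKM), OLFML2A (4.23 FPKM), OLFML3 (1.49 FPKM) and OLFML1 (0.0440 FPKM) followed in that order in all 3 bare alloy libraries. On the coated surfaces OLFM1 was first in all 6 libraries, at a mean of 12.7 FPKM on the HA coating and 18.0 FPKM on TiB2. OLFML2A came second, at 2.59 FPKM on the HA coating and 3.96 FPKM on TiB2, ahead of MYOC at 1.56 FPKM and 1.97 FPKM, except in HA replicate 3, where MYOC was second. OLFM2 and OLFML2B exchanged places in TiB2 replicate 2.

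Summed over the family, the level was 22.7, 15.9 and 17.3 FPKM in the HA libraries, 28.2, 27.4 and 24.5 FPKM in the TiB2 libraries and 77.2, 75.6 and 75.2 FPKM in the bare alloy libraries. MYOC made up 6.13% to 11.5% of that sum on the HA coating, 5.83% to 8.61% on TiB2 and 50.8% to 53.5% on bare alloy. OLFM1 made up 63.3% to 74.8% on the HA coating, 66.6% to 68.1% on TiB2 and 15.9% to 18.0% on bare alloy. Much of this difference rests on MYOC and OLFM2, which were chosen by their fall. The 5 genes taken by name summed to 20.3, 13.5 and 15.2 FPKM in the HA libraries, 25.4, 24.1 and 21.0 FPKM in the TiB2 libraries and 23.6, 23.9 and 24.4 FPKM in the bare alloy libraries. All HA libraries lay below the other 2 surfaces in this sum, and TiB2 overlapped bare alloy. OLFM1 made up 73.4% to 85.3% of it on the HA coating, 73.8% to 78.4% on TiB2 and 51.9% to 55.6% on bare alloy.

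**Figure D3:**
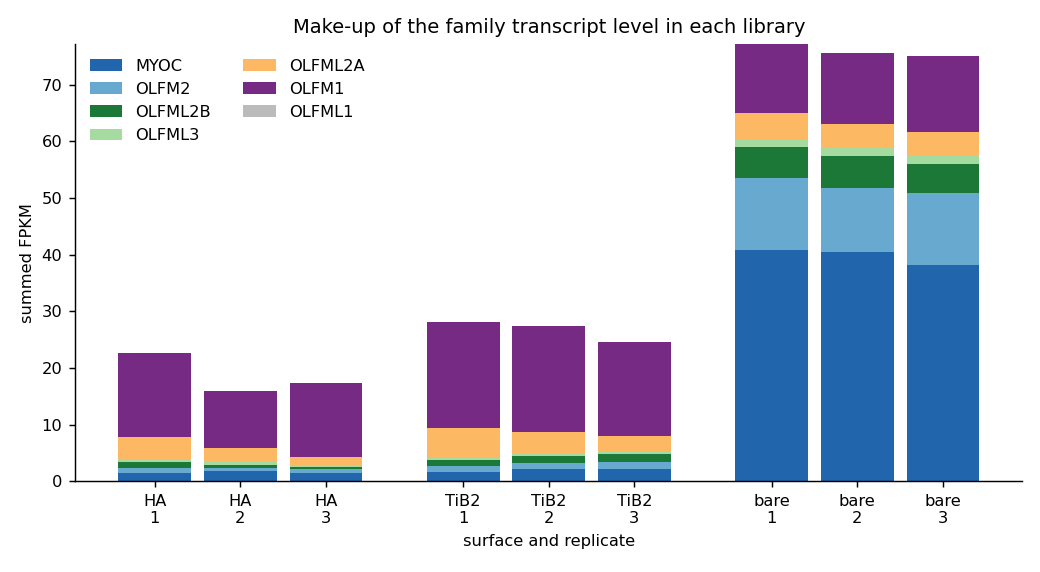
Summed FPKM of the 7 family genes in each library (y axis; libraries by surface and replicate on the x axis), with a colour per gene. The sum is 15.9 to 22.7 FPKM on the HA coating and 24.5 to 28.2 FPKM on TiB2, against 75.2 to 77.2 FPKM on bare alloy, where MYOC is the widest band; OLFM1 is the widest band on the coated surfaces.

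Other proteins with an olfactomedin domain were measured beside the family. Rows were found for GLDN (gliomedin, a collagen-like protein at nodes of Ranvier) and for the adhesion receptors ADGRL1, ADGRL2 and ADGRL3, the latrophilins; OLFM3 and OLFM4 were not analysed here. None of the 3 that passed the filter passed the test on the HA coating against bare alloy. ADGRL1 averaged 31.2 ± 12.5 CPM on the HA coating and 43.7 ± 5.35 CPM on bare alloy (edgeR adjusted p = 0.277), and ADGRL2 averaged 0.937 ± 0.509 CPM and 0.417 ± 0.102 CPM in that order (edgeR adjusted p = 0.176), with every HA library above every bare alloy library, as for 17.1% of all genes tested. GLDN averaged 2.19 ± 0.435 CPM on TiB2 and 1.02 ± 0.200 CPM on bare alloy and rose 2.14-fold there (1.10 ± 0.27; edgeR adjusted p = 0.0161). That call was lost without TiB2 replicate 2, TiB2 replicate 3 or bare alloy replicate 3, in the fit over all 9 libraries and in both limma fits on FPKM, with a highest adjusted p of 0.0954 among all alternatives. ADGRL3 had at most 5 counts in any library and did not pass the filter.

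Because MYOC responds to glucocorticoids in the eye and dexamethasone was in all media, 14 genes known to respond to glucocorticoids, or to carry the response, were examined. On the HA coating against bare alloy 12 were fitted, of which 1 fell and none rose, against 4.88% and 5.02% of all genes tested, a share close to that background. Their median log2 fold change was -0.15, against 0.02 over all genes. The gene that fell was FOXO1, a forkhead transcription factor, at 3.11 ± 0.716 CPM on the HA coating and 11 ± 0.153 CPM on bare alloy, 3.57-fold lower (edgeR adjusted p = 0.00261). NR3C1, the glucocorticoid receptor itself, averaged 147 ± 17 CPM on the HA coating and 175 ± 7.17 CPM on bare alloy (-0.26; edgeR adjusted p = 0.329). FKBP5, a co-chaperone of the receptor and a common readout of its activity, averaged 18.5 ± 2.73 CPM and 12.4 ± 0.680 CPM in the same order (0.57 ± 0.18; edgeR adjusted p = 0.0805). TSC22D3, another common target of the receptor, averaged 7.94 CPM and 10.9 CPM in the same order (-0.47 ± 0.20; edgeR adjusted p = 0.173). On the HA coating the libraries of FKBP5, SGK1 and CRISPLD2 were all above those of bare alloy, as for 17.1% of all genes tested. Those of TSC22D3, FOXO1 and NR3C1 were all below, as for 17.4%.

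On TiB2 against bare alloy 13 of these genes were fitted, of which 2 rose and 1 fell, against 12.9% and 12.2% of all genes tested, with a median of 0.30 against 0.00 over all genes. FKBP5 rose by 0.70 on the log2 scale (edgeR adjusted p = 0.0106), and PER1, a clock gene, rose by 0.57 (edgeR adjusted p = 0.0309). The PER1 call was lost without TiB2 replicate 2, TiB2 replicate 3, bare alloy replicate 2 or bare alloy replicate 3. It was also lost without the filter on low counts, in the fit over all 9 libraries and with the replicate block (highest edgeR adjusted p = 0.233). FOXO1 fell by 1.18 (edgeR adjusted p = 0.00128). Between the coated surfaces 1 of 13 changed (0.632% of all genes tested), CEBPD, a transcription factor of the C/EBP family, which averaged 24.3 ± 7.05 CPM on the HA coating and 75.3 ± 4.08 CPM on TiB2 and fell 3.11-fold (edgeR adjusted p = 0.00983). That call was lost without HA replicate 2 or TiB2 replicate 1, without the filter on low counts and in the fit over all 9 libraries.

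Genes of reported partners were examined next, 20 genes for proteins that bind family members or carry their reported effects. On the HA coating against bare alloy 19 were fitted, 3 fell and none rose, against 4.88% and 5.02% of all genes tested, with a median of -0.20 against 0.02 over all genes. TIMP3, a matrix-bound inhibitor of metalloproteases that binds myocilin, fell 9.06-fold, at 13.7 ± 4.95 CPM on the HA coating and 123 ± 10.7 CPM on bare alloy (-3.18 ± 0.28; edgeR adjusted p = 5.17e-04). FZD7, a Wnt receptor, fell 2.42-fold (edgeR adjusted p = 0.0151), a call lost without bare alloy replicate 2 or replicate 3. SPARC, a collagen-binding matrix protein and a reported binder of myocilin, fell by 1.21 on the log2 scale (edgeR adjusted p = 0.00862), a call lost without bare alloy replicate 2. FN1, fibronectin, lay at -1.26 ± 0.36 and did not pass (edgeR adjusted p = 0.0586).

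On TiB2 against bare alloy 18 were fitted, 8 fell and 2 rose, against 12.2% and 12.9% of all genes tested, with a median of -0.28 against 0.00 over all genes. TIMP3 fell 8.09-fold, at 15.3 ± 0.390 CPM on TiB2 (-3.02 ± 0.09; edgeR adjusted p = 1.44e-07), and FN1 fell by 1.27 on the log2 scale (edgeR adjusted p = 2.69e-04). SPARC, FBN1 (fibrillin-1), FLOT1 (flotillin-1), FZD7 and the secreted Wnt antagonists SFRP1 and WIF1 also fell. The rises were RTN4R, the Nogo receptor, and RUNX2, the transcription factor of osteoblasts. The calls of FBN1, RUNX2, RTN4R and WIF1 were lost in 5, 5, 4 and 1 of the 6 fits that left out a library. That of WIF1 was lost without bare alloy replicate 3. In the edgeR fit over all 9 libraries those of FBN1, RUNX2, RTN4R and FZD7 were lost (adjusted p = 0.108 for FZD7). Those of FBN1 and RUNX2 were also lost in both limma fits, without the filter on low counts and with the replicate block. Between the coated surfaces none of 19 passed.

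**Figure D4:**
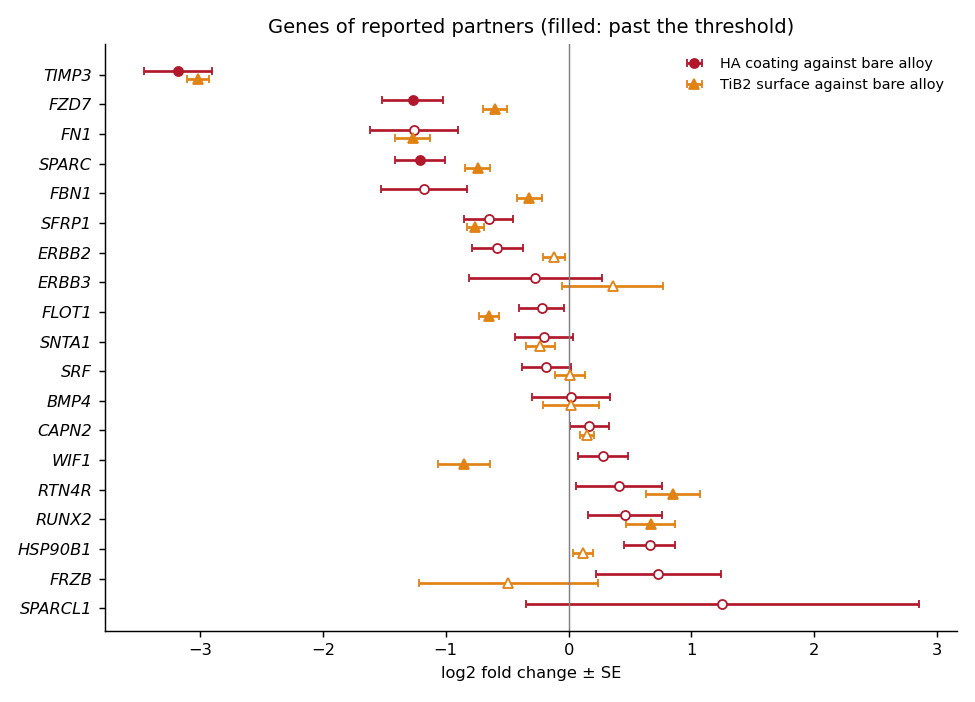
Log2 fold change ± SE (x axis) of the 19 partner genes fitted, in rows, for the HA coating against bare alloy (circles) and TiB2 against bare alloy (triangles), 3 libraries per surface, with filled symbols past the threshold. TIMP3 stands apart at -3.18 and -3.02, and the other genes past the threshold lie between -1.27 and 0.85.

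OLFM2 has been reported to promote contractile genes in smooth muscle, so 10 such genes were measured. On the HA coating none of 10 passed against bare alloy, with a median of -0.02, and ACTA2, smooth muscle actin, averaged 15.6 CPM on the HA coating and 16.3 CPM on bare alloy (edgeR adjusted p = 0.824). On TiB2 9 were fitted, with a median of -0.54. There ACTA2 fell by 0.59 on the log2 scale (edgeR adjusted p = 0.0105), MYL9, a myosin light chain, fell by 1.30 (edgeR adjusted p = 0.0118), and CALD1, caldesmon, fell by 0.54 (edgeR adjusted p = 0.00208), while SMTN, smoothelin, rose by 0.43 (edgeR adjusted p = 0.00672). The SMTN call was lost in the edgeR fit over all libraries (adjusted p = 0.135). Between the coated surfaces none of 9 passed. The share of all genes tested that changed was 9.89% on the HA coating and 25.1% on TiB2, so the counts of 0 of 10 and 4 of 9 are not on the same footing. Every HA library was above every TiB2 library for ACTA2, TAGLN, MYL9, CALD1 and LMOD1, 5 of the 9 fitted, as for 8.54% of all genes tested.

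The family genes lie on 4 chromosomes, and their neighbours were read from the same table. Next to OLFM2, across a gap of 23.0 kb, lies COL5A3, which encodes a chain of type V collagen. COL5A3 fell 7.65-fold on the HA coating (-2.93 ± 0.21; edgeR adjusted p = 2.46e-04) and 5.34-fold on TiB2 (-2.42 ± 0.25; edgeR adjusted p = 1.57e-04), both against bare alloy. Within 500 kb of the OLFM2 start 27 protein-coding genes were tested, of which 1 fell and 4 rose on the HA coating (4.88% and 5.02% of all genes tested) and 3 fell and 7 rose on TiB2 (12.2% and 12.9%).

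Around the other low genes no fall of a neighbour passed the threshold. The genes beside MYOC are PRRC2C at 41.9 kb (-0.49 ± 0.29) and VAMP4 at 47.5 kb (0.03 ± 0.20), and none of 5 genes within 500 kb passed on either coated surface. The lowest of the 5 was DNM3, at -1.05 on the HA coating and -0.65 on TiB2. ATF6, a sensor of unfolded proteins 7.82 kb from OLFML2B, lay at 0.21 ± 0.17 on the HA coating, and HIPK1, a kinase 1.57 kb from OLFML3, lay at -0.06 ± 0.19. On the HA coating none of 6 genes within 500 kb of OLFML2B and none of 7 around OLFML3 passed. On TiB2 1 of 7 and 2 of 7 rose around these genes. OLFM1 also has a type V collagen gene next to it, COL5A1, at 231 kb, which lay at -1.15 ± 0.34 on the HA coating (edgeR adjusted p = 0.0626) and fell by 0.53 on TiB2 (edgeR adjusted p = 0.00564, or 0.320 in the fit over all 9 libraries), where OLFM1 rose.

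**Figure D5:**
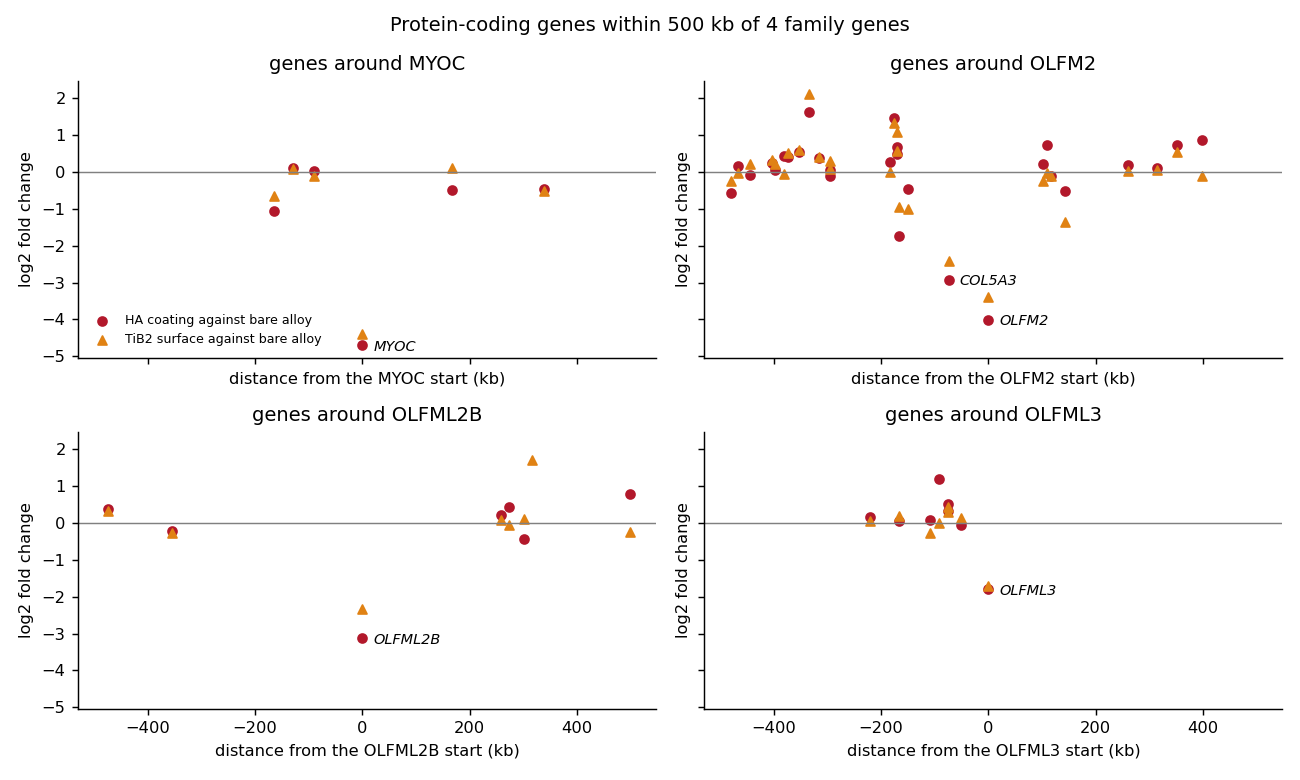
Log2 fold change (y axis) of the protein-coding genes tested within 500 kb of the start of MYOC, OLFM2, OLFML2B and OLFML3, by distance of their start from it in kb (x axis, positive in the direction of transcription), on the HA coating (circles) and TiB2 (triangles) against bare alloy. Next to OLFM2 (-4.01 on the HA coating) lies COL5A3 (-2.93), while the genes around MYOC, OLFML2B and OLFML3 show no fall past the threshold.

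The genes most like MYOC across the 9 libraries were ECM2 (Pearson r = 0.9943), CD24 (0.9943), BRINP1 (0.9937), COL14A1 (0.9933) and MEF2C (0.9931), out of 11347 genes with a symbol and a mean FPKM of at least 1. All 9 libraries share the split between bare alloy and coated surfaces, so the correlation describes that split and carries no p. ECM2, a matrix protein, averaged 0.743 CPM on the HA coating, 1.11 CPM on TiB2 and 19.6 CPM on bare alloy, and COL14A1, a fibril-associated collagen, averaged 11.4 CPM, 13.5 CPM and 207 CPM in that order. By Pearson r, OLFM2 ranked 14 in likeness to MYOC (0.9879) and OLFML2B ranked 80 (0.9614), whereas OLFML2A (0.4615) and OLFM1 (-0.3209) were far down. OLFML3 and OLFML1 lay below the FPKM limit and were not ranked. MYOC and OLFM2 were both chosen by their fall, so their likeness to each other follows in part from that choice.

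Nearest to OLFM2 were COL4A5 (0.9946), MFAP4 (0.9936), CHRDL1 (0.9917), TIMP3 (0.9913) and TBX15 (0.9906). MFAP4, a microfibril-associated glycoprotein, averaged 3.24 CPM on the HA coating, 5.00 CPM on TiB2 and 26 CPM on bare alloy. By Pearson r, MYOC ranked 8 and OLFML2B 13 in likeness to OLFM2 (0.9879 and 0.9852). By Spearman's rho, which ignores the size of the split, 1 of the 5 genes nearest to MYOC and 0 of those nearest to OLFM2 stayed in the list. Ties limit this count. The genes ranked 1 to 5 for MYOC shared a rho of 0.9667, and those ranked 1 to 4 for OLFM2 shared 1.0000. Which genes made the list may thus rest on the order of tied genes. By rho OLFM2 ranked 347 in likeness to MYOC, and MYOC ranked 715 in likeness to OLFM2 (0.8000), while OLFML2B ranked 100 and 102 (0.8667 and 0.9167).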

How the data were processed

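The authors deposited raw counts and FPKM values for 36385 genes in each library (26747 rows with a symbol), and coordinates are those of that table. The submitters' processing notes name GRCh38, limma, featureCounts 2.0.1, HISAT2 2.2.1, StringTie 2.1.4 and cutadapt 2.10. The sources used here do not give the use of strand or of multi-mapping reads, so overlapping genes are uncertain. Each comparison was fitted on its own 6 libraries with edgeR 4.0.16 (R 4.3.3): filterByExpr, TMM scaling, glmQLFit and the two-sided glmQLFTest, with Benjamini-Hochberg adjustment over all genes tested and a threshold of 0.05. SE values are the absolute log2 fold change over the square root of F. CPM levels use TMM over all 9 libraries, and a limit for a count of 0 covers counting error only. DESeq2 1.42.0 and limma 3.58.1 on log2(FPKM + 1) were among the alternatives, and the fit was tested on simulated data. Each simulation changed 100 genes 2-fold and 100 genes 4-fold, among 20086 to 20152 genes. In the real comparisons with bare alloy a larger share was called (9.89% on the HA coating, 25.1% on TiB2). The adjustment depends on that share, so recovery in the real fits may differ. Of true 2-fold changes the fit recovered 19% for the HA coating against bare alloy, 68% for TiB2 against bare alloy and 22% between coated surfaces. Of 4-fold changes it recovered 63%, 79% and 71% in that order. A gene that did not pass may therefore still differ. The family genes, lists and rules were chosen with earlier results of these data known. Named were all family genes, listed genes that passed or bear on a family gene, the nearest tested protein-coding gene on each side, and the 5 genes with the highest Pearson r of log2(CPM + 0.5) to MYOC and to OLFM2. An item under this rule is not reported here. A few further genes (ALPL, LUM, IL7R, the 4 endothelial genes, marker genes at 0 counts) come from the marker lists. Markers of macrophages, adipocytes, skeletal muscle and neurons summed to at most 28.4 CPM in any library.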

Additional observations from a re-analysis of the deposited data

Results flagged for a closer look

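CEBPD differed between the HA coating and TiB2, surfaces that were each compared with bare alloy, by a test of the difference itself (-1.64 ± 0.22 on the log2 scale; edgeR adjusted p = 0.00983, at most 0.0925 among the alternatives). Against bare alloy it lay at -1.17 on the HA coating and 0.46 on TiB2, and neither passed (edgeR adjusted p = 0.0945 and 0.353). Its bare alloy libraries ranged from 24.3 to 81.2 CPM.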

How the results depend on the processing

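No value changed sign past the threshold under any alternative, and log2 fold changes over the alternatives ran from -4.89 to -4.00 for MYOC and from -4.21 to -2.91 for OLFM2 on the HA coating against bare alloy. The ends at -4.00 and -2.91, like -3.79 and -2.58 on TiB2, came from limma on log2(FPKM + 1), whose pseudocount shrinks low values. Family genes called on the HA coating against bare alloy numbered 2, or 2 to 3 with 1 library left out and 1 against bare alloy replicate 1 alone; on TiB2 they numbered 3 with any library left out and 2 in the fit over all 9 libraries; between coated surfaces they numbered 0, or 0 to 1 with 1 left out, the 1 without HA replicate 1. Listed genes called on the HA coating against bare alloy numbered 4, or 10 with DESeq2, 9 in the fit over all 9 libraries, 2 against bare alloy replicate 1 alone, 9 without HA replicates 2 and 3 together (an alternative added after seeing the data) and 2 to 10 with 1 library left out (10 without HA replicate 1, 7 without bare alloy replicate 1, 2 without bare alloy replicate 2). On TiB2 they numbered 18, or 11 in the fit over all 9 libraries and 13 to 17 with 1 left out. Between coated surfaces they numbered 1, or 4 with DESeq2, 0 without the filter on low counts, 0 in the fit over all 9 libraries and 0 to 3 with 1 left out; the cause was not tested. Over all genes, calls on the HA coating against bare alloy numbered 1990, or 3324 with DESeq2, 3518 over all 9 libraries, 1093 with no filter, 286 against bare alloy replicate 1 alone and 598 (without bare alloy replicate 2) to 4185 (without HA replicate 1) with 1 left out. Calls on TiB2 numbered 5059, or 2132 over all 9 libraries. Calls between coated surfaces numbered 127, or 490 with DESeq2, 83 with limma, 35 with no filter, 67 over all 9 libraries, and 49 to 1224 with 1 left out. Replicate numbers did not pair the libraries: correlations of same-numbered deviations ran from -0.0682 to 0.04, and 2, 1 and 0 of 6 libraries correlated best with their own number in the 3 comparisons. With the replicate block 2, 3 and 0 family genes, 5, 15 and 1 listed genes, and 1357, 3625 and 195 of all genes were called. Depth limits OLFML1 and ADGRL3.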
